A study of Mus musculus with 7 samples.

Results

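The stress genes Atf4, Asns, Slc7a5, Hspa5 and Calr are 5 of the 9930 genes that a probe of the array names with a single symbol, and they had 6 of its 20355 probes, 2 of them for Atf4. They were chosen by symbol, as stress response genes whose 3 h values were already known, so the 3 h values are a description and were not tested. The RNA came from mouse NIH3T3 fibroblasts, a line grown from embryos that divides without limit, with overexpressed Acid1, taken 3 h or 10 h after a treatment that the labels do not name. Each of 7 arrays carried RNA of treated fibroblasts in 1 dye and of non-treated fibroblasts in the other. At 3 h there were 4 arrays, with the treated sample in Cy5 on replicates 1 and 2 and in Cy3 on replicates 3 and 4, and at 10 h there were 3, with the treated sample in Cy5 on replicates 1 and 2 and in Cy3 on replicate 3. The labels do not say whether the non-treated cells carried the Acid1 construct, what drove it, or whether a line was 1 clone, and no probe carried the name Acid1. Separate cultures are not named for the arrays, so a p-value here reflects only how these arrays scatter, which may be technical.

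When unfolded proteins collect in the endoplasmic reticulum (ER) or amino acids run short, kinases phosphorylate the translation factor eIF2 alpha, which slows protein synthesis and at the same time favours translation of the transcription factor ATF4. ATF4 turns on amino acid genes such as Asns, asparagine synthetase, and Slc7a5, the light chain of a transporter for large neutral amino acids. The sensors ATF6 and IRE1 act on a second set, the chaperones of the ER, which include Hspa5 (BiP, an Hsp70 of the ER lumen) and Calr (calreticulin, a calcium-binding chaperone of glycoproteins). Secretory cells such as fibroblasts, which export collagen, use both sets.

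Promoters are shown because both branches act through known DNA elements, one bound by ATF4 with C/EBP partners and one in chaperone genes. Atf4, Asns and Slc7a5 are called the amino acid arm here, and Hspa5 and Calr the chaperones. RefSeq windows were found for 4 of the 5 genes on GRCm38.p6, and Slc7a5 is named only. The 250 bases before the start site are printed 5′ to 3′ on the strand of the gene, with matches to the motifs in capitals: the C/EBP-ATF core TGATGNAA, the ER stress response element (CCAAT and CCACG with 9 bases between), its second form (ATTGG and CCACG with 1 base between) and the CCAAT box, each sought on both strands. The ER stress response element contains a CCAAT box, so those matches overlap. Asns lies at chr6:7693210-7693459 on the minus strand, Atf4 at chr15:80254934-80255183 on the plus strand, Hspa5 at chr2:34771840-34772089 on the plus strand and Calr at chr8:84846932-84847181 on the minus strand.
Asns: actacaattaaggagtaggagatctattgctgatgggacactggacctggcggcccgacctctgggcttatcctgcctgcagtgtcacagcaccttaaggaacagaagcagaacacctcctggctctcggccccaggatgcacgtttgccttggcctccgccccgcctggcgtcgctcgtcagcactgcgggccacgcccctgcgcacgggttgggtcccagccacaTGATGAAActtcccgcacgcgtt
Atf4: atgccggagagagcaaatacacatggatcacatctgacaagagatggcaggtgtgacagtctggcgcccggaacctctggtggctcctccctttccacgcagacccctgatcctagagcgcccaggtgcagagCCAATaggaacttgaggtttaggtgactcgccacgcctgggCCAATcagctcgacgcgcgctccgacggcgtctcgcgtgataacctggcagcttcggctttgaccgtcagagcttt
Hspa5: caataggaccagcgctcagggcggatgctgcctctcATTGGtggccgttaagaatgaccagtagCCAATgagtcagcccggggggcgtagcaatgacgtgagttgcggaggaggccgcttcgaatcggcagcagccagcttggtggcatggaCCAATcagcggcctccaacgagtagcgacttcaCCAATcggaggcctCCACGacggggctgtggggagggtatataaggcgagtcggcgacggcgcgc
Calr: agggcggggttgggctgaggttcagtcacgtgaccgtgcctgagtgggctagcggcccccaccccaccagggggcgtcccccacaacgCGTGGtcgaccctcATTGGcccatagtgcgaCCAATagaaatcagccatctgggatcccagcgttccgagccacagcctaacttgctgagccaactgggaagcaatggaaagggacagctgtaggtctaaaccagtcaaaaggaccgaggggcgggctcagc

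The C/EBP-ATF core had 1 match in the window of Asns, TGATGAAA from -23 to -16 relative to the start site, and none in those of Atf4, Hspa5 and Calr. It was held by 3.45% of the 32851 windows of this length. The ER stress response element had 1 match in Hspa5, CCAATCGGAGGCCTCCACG from -65 to -47, and 1 in Calr on the opposite strand, which reads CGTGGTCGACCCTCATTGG on the strand of the gene, from -162 to -144. It was held by 0.113% of all windows, and by neither Asns nor Atf4. The second form, held by 0.0304%, matched in none of the 4 windows. The CCAAT box, held by 33.8% of all windows, had 2 matches in Atf4, 4 in Hspa5, 2 in Calr and 0 in Asns. A match describes letters in this window and is not a measured site.

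The values are deposited log2 ratios, and the labels state neither their base nor their direction. They were read as treated over non-treated cells, since the treated cells are the first channel on every array in the labels, so a value above 0 then means more of the transcript in treated cells. With the other reading, Cy5 over Cy3, the sign turns on the Cy3 arrays, and both readings are given. The 3 h arrays carried coarser and more scattered values. Of their measured spots, 54.8% to 63.4% fell on ratios of small whole numbers (up to 8, such as 1:1 or 1:2) after removal of a constant that each array carries, against 11.9% to 13.0% at 10 h. The scaled median absolute deviation was 0.818 to 1.15 at 3 h and 0.532 to 0.584 at 10 h. Without intensities, a ratio gives no level of a transcript and no array depth, and in bulk RNA less RNA per cell and fewer cells of a kind cannot be told apart. Of the 22 probes for 11 fibroblast marker genes, such as collagens and vimentin, 87.5% of the 3 h values were measured, against 69.3% for all probes, 78.6% for adipocyte, 70.0% for skeletal muscle, 52.8% for epithelial and 50.0% for macrophage and lymphocyte markers. At 10 h these shares were 95.5% for fibroblast, 83.1% for all, 86.7% for skeletal muscle, 81.5% for epithelial and 50.0% for macrophage and lymphocyte probes, and every adipocyte value was measured, so detection alone did not set fibroblast markers apart from those of adipocytes.

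At 3 h the deposited ratios of all 5 genes lay above 0 on 4 of 4 arrays, with Atf4 taken as the mean of its probes, and with gene means of 0.31 to 0.56. Of these, Atf4 on replicate 4 and Slc7a5 on replicate 2 were only the constant of the array. On replicate 1 Atf4 was above 0 through probe 18438, at the constant of that array (0.450), while probe 11715 was at -0.117. At 10 h the deposited ratios were closer to 0 for Atf4 and Calr, stayed above 0 on every array for Asns and Hspa5, and were below 0 for Slc7a5 on both arrays that measured it. Of the 5 probes with 4 values at 3 h, 4 were above 0 on all 4 arrays, where 4.19% of 7143 such probes on the array were. Read as Cy5 over Cy3, 0 of the 5 were, against 8.19% of all such probes. The genes were chosen on the 3 h contrast, so nothing is read from these counts.

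**Figure D1:**
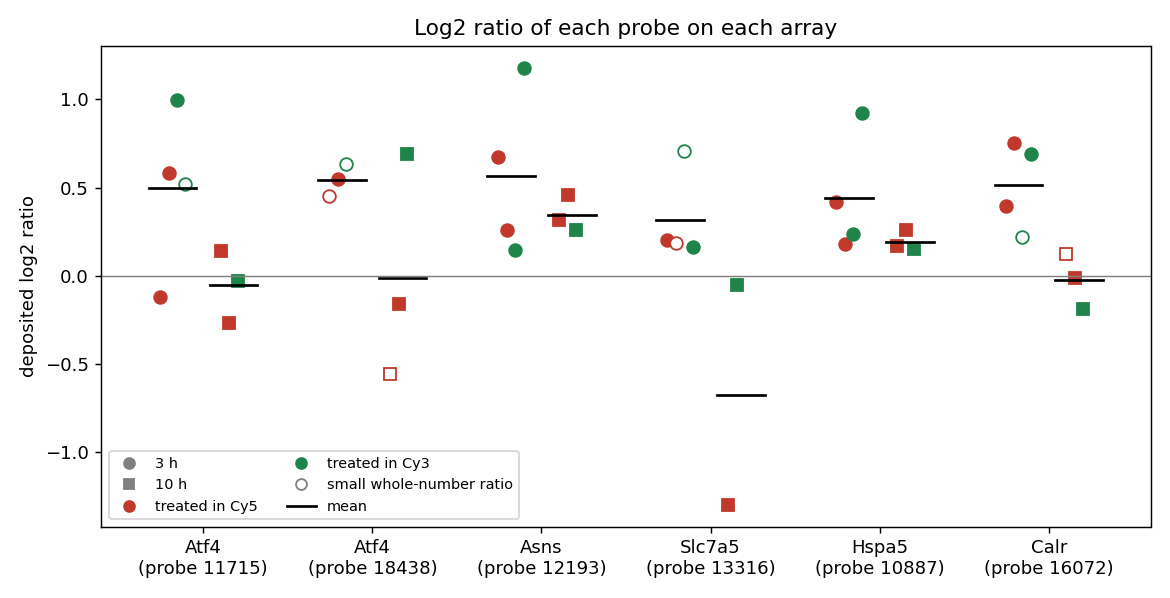
Deposited log2 ratio (y axis, no unit) of each of the 6 probes (x axis) on each array, with circles for 3 h, squares for 10 h, red for the treated sample in Cy5, green for Cy3, open symbols for values at a small whole-number ratio and bars for means. The 3 h means lie between 0.31 and 0.56 and the 10 h means between -0.67 and 0.34, with the widest gap for Slc7a5.

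Atf4, the transcription factor at the head of the amino acid arm, was read by 2 probes. At 3 h probe 11715 had log2 ratios of -0.117, 0.585, 0.995 and 0.520 on replicates 1 to 4, and probe 18438 had 0.450, 0.549 and 0.634 on replicates 1 to 3 and no value on replicate 4. Replicate 1 of probe 11715 was thus the 1 value of these genes below 0 at 3 h. The gene mean was 0.52 ± 0.27 (SD, n = 4), with 0.37 over the Cy5 arrays and 0.67 over the Cy3 arrays. At 10 h probe 11715 had 0.139, -0.265 and -0.028, and probe 18438 had -0.555, -0.162 and 0.688. Both probes had both signs at 10 h, the second with its high value on the Cy3 array, and the gene mean was -0.03 ± 0.31 (n = 3).

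Asns, which makes asparagine from aspartate, had log2 ratios of 0.674, 0.258, 0.145 and 1.179 at 3 h and of 0.315, 0.456 and 0.262 at 10 h. The 3 h values spread over a wide range that enclosed all the 10 h values. The means were 0.56 ± 0.47 (n = 4) and 0.34 ± 0.10 (n = 3), so Asns kept its sign on all 7 arrays in this reading. Without 3 h replicate 4 the 3 h mean was 0.36.

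Slc7a5 imports large neutral amino acids such as leucine. It had log2 ratios of 0.202, 0.187, 0.705 and 0.163 at 3 h, and of -1.297 and -0.049 on replicates 2 and 3 at 10 h, with no value on replicate 1. Replicate 3 stood well above the other 3 h arrays, and the 10 h mean rests on replicate 2. The means were 0.31 ± 0.26 (n = 4) and -0.67 ± 0.88 (n = 2), and the 2 times did not overlap. Without 3 h replicate 3 the 3 h mean was 0.18.

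Hspa5, the main Hsp70 chaperone of the ER, had log2 ratios of 0.421, 0.178, 0.239 and 0.923 at 3 h and of 0.171, 0.257 and 0.151 at 10 h. Replicate 4 was the highest at 3 h, as it was for Asns, and the 2 times overlapped. The means were 0.44 ± 0.34 (n = 4) and 0.19 ± 0.06 (n = 3), and without 3 h replicate 4 the first was 0.28.

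Calr, which holds newly made glycoproteins until they fold, had log2 ratios of 0.397, 0.755, 0.219 and 0.693 at 3 h and of 0.123, -0.012 and -0.189 at 10 h. Every 10 h value lay below every 3 h value. The means were 0.52 ± 0.25 (n = 4) and -0.03 ± 0.16 (n = 3), and the 3 h means were 0.58 over the Cy5 arrays and 0.46 over the Cy3 arrays.

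Part of these values are coarse. At 3 h 6 of the 23 measured values, and at 10 h 2 of 17, lay at a small whole-number ratio. At 4 of these the channels were equal before the constant of the array was added, so the value and its sign are the constant itself: Atf4 probe 11715 on 3 h replicate 4, probe 18438 on 3 h replicate 1 and 10 h replicate 1, and Slc7a5 on 3 h replicate 2. Without coarse values the 3 h means were 0.48 for Atf4, 0.18 for Slc7a5 and 0.61 for Calr, and those of Asns and Hspa5, which had no such value, did not move.

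The rank of a probe on its array is the same after any constant or positive factor applied to the whole array. At 3 h the share of measured spots with a lower ratio ran from 46.4% for Atf4 probe 11715 on replicate 1 to 91.0% for Asns on replicate 4, with a median of 67.9%, and 22 of 23 values were above the median of their array. At 10 h it ran from 12.1% for Slc7a5 on replicate 2 to 80.5% for Atf4 probe 18438 on replicate 3, with a median of 60.5%, and 9 of 17 values were above the array median. Read as Cy5 over Cy3, with the sign turned on Cy3 arrays, 11 of 23 values at 3 h and 9 of 17 at 10 h were above the array median, with medians of 46.4% and 52.6%. In the first reading Asns was at 66.6% to 80.4% and Hspa5 at 60.5% to 70.7% on the 10 h arrays.

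**Figure D2:**
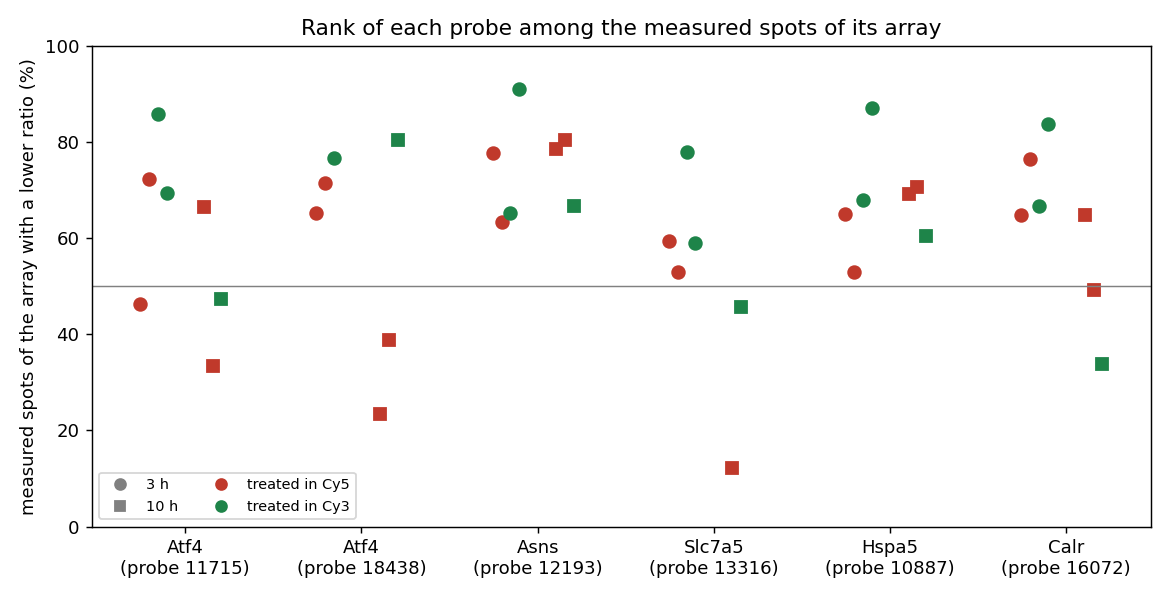
Share of the measured spots of an array with a lower ratio (y axis, percent) for each of the 6 probes (x axis), with circles for 3 h, squares for 10 h, red for the treated sample in Cy5 and green for Cy3, and a line at the array median. At 3 h 22 of 23 points lie above the line, and at 10 h 9 of 17, with Slc7a5 lowest at 12.1%, for values read as treated over non-treated; read as Cy5 over Cy3, 11 of 23 and 9 of 17 do.

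The test at 10 h asks whether these transcripts differed between treated and non-treated cells on arrays that had the least part in their choice. Each probe was fitted with limma over all 7 arrays, with a mean for each time and a term for the dye, and p-values were adjusted over all 11559 probes tested. Of the 6 probes, 0 passed an adjusted p of 0.05, as did 0.0% of all probes tested, and 0 had an unadjusted p under 0.05, against 3.88% of all. The fitted log2 ratio at 10 h was 0.36 for Asns, with a 95% interval from -0.39 to 1.10, and 0.22 for Hspa5, with an interval from -0.46 to 0.90. For Calr it was -0.05 (-0.71 to 0.60), for Slc7a5 -0.67 (-1.63 to 0.28), for Atf4 probe 11715 0.00 (-0.72 to 0.73) and for probe 18438 0.09 (-0.68 to 0.86). The adjusted p in limma was 1.0 for each. Of the 5 probes with 3 values at 10 h, those of Asns and Hspa5 were above 0 on 3 of 3 arrays, where 14.2% of all such probes were. With Cy5 over Cy3, 0 of these 5 probes were, against 14.1%. Each interval includes 0 and spans more than 1 log2 unit, and the number of arrays limits the precision. The fit used 1 spread per probe over both times, so an interval is not the scatter of the 10 h arrays alone. The dye term was also fitted over all 7 arrays, so 3 h values can enter the fitted 10 h values. With each time fitted alone, the 10 h values were 0.32 for Asns, 0.18 for Hspa5 and 0.06 for Atf4 as a probe mean. They were -0.07 for Calr and -0.67 for Slc7a5. For Asns and Hspa5 the SDs were 0.10 and 0.06 at 10 h, against 0.47 and 0.34 at 3 h. The 10 h SD was also the smaller for Calr and Atf4 probe 11715, and the larger for Slc7a5 and Atf4 probe 18438. Without 10 h replicate 2 the fitted value of Slc7a5 was -0.17, and without 10 h replicate 3 it was -1.18.

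Read as treated over non-treated, all 5 genes had lower means at 10 h than at 3 h. The fitted difference, 10 h minus 3 h, was -0.21 for Asns, -0.22 for Hspa5, -0.52 for Atf4, -0.57 for Calr and -0.99 for Slc7a5, and over all genes the median difference was 0.11. These differences hold the 3 h values on which the genes were chosen, and they were not tested. With 1 array left out, Asns ran from -0.36 (without 3 h replicate 3) to -0.02 (without 3 h replicate 4), and Slc7a5 from -1.49 (without 10 h replicate 3) to -0.48 (without 10 h replicate 2). Hspa5 ran from -0.32 to -0.09, the latter without 3 h replicate 4 or 10 h replicate 3. Atf4 ran from -0.62 to -0.40 and Calr from -0.67 to -0.48. Calr and Slc7a5 were the 2 of 6 probes with every 10 h array below every 3 h array, where 4.72% of the probes in the fit were. Read as Cy5 over Cy3, the differences were 0.11 for Asns, 0.12 for Hspa5, -0.23 for Atf4, -0.05 for Calr and -0.50 for Slc7a5, so 3 of 5 stayed below 0, the median over all genes was -0.04, and 0 of 6 probes had every 10 h array below every 3 h array, against 5.95% of those in the fit.

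The amino acid arm and the chaperones were set against each other within each array, which shares the dye and the scaling. At 3 h the mean over Atf4, Asns and Slc7a5 was 0.35, 0.34, 0.55 and 0.62 on replicates 1 to 4, and the mean over Hspa5 and Calr was 0.41, 0.47, 0.23 and 0.81. The chaperones were thus higher on 3 of 4 arrays and the amino acid arm on replicate 3. The arm less the chaperones was -0.01 ± 0.23 (SD, n = 4), a difference smaller than the spread between arrays. At 10 h the arm was 0.05, -0.35 and 0.18, and the chaperones were 0.15, 0.12 and -0.02. Slc7a5 had no value on 10 h replicate 1, so the arm on that array is the mean over Atf4 and Asns only. The difference was -0.12 ± 0.34 (n = 3), below 0 on 2 of 3 arrays, and on replicate 2 it rests on the low value of Slc7a5. With Cy5 over Cy3 the difference was -0.08 ± 0.21 at 3 h, below 0 on 3 of 4 arrays, and -0.26 ± 0.20 at 10 h, below 0 on 3 of 3. Without Slc7a5, and read as treated over non-treated, it was 0.06 ± 0.13 at 3 h and 0.07 ± 0.21 at 10 h. A score over chosen genes was not tested, and in that reading each difference was smaller than its spread between arrays.

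**Figure D3:**
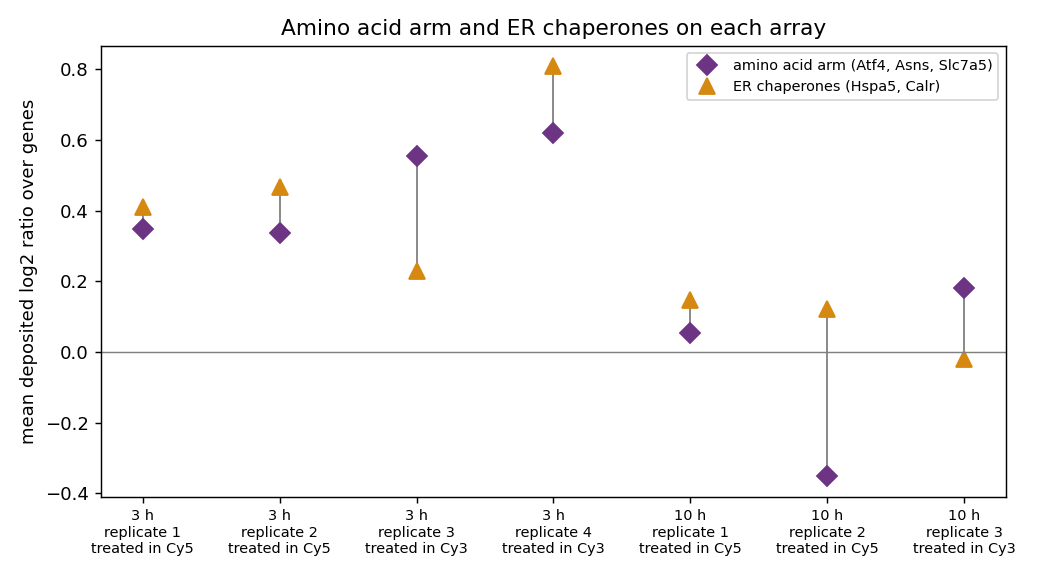
Mean deposited log2 ratio (y axis, no unit) over the amino acid arm (diamonds) and over the ER chaperones (triangles) on each of the 7 arrays (x axis), joined by a line. On 10 h replicate 1, where Slc7a5 was not measured, the arm is the mean over Atf4 and Asns. The arm lies above the chaperones only on replicate 3 of 3 h and replicate 3 of 10 h, both with the treated sample in Cy3, for values read as treated over non-treated. On replicate 4 of 3 h, also with the treated sample in Cy3, the arm lies below them, by -0.19.

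Array by array, the highest and lowest values did not follow the arms. Asns and Hspa5 had their highest values on the same 3 h array, replicate 4 (1.179 and 0.923), the next on replicate 1 (0.674 and 0.421), and at 10 h both were highest on replicate 2 (0.456 and 0.257). Atf4 and Slc7a5 both had their highest value on 3 h replicate 3 (0.81 as a probe mean, and 0.705). On 10 h replicate 2 they had -0.21 and -1.297, while on 10 h replicate 1 Atf4 was also at -0.21 and Slc7a5 was not measured. Calr followed neither and was highest on 3 h replicate 2. These pairs were picked after their values were seen, and the arrays fall into 2 times, so no correlation is given for them.

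**Figure D4:**
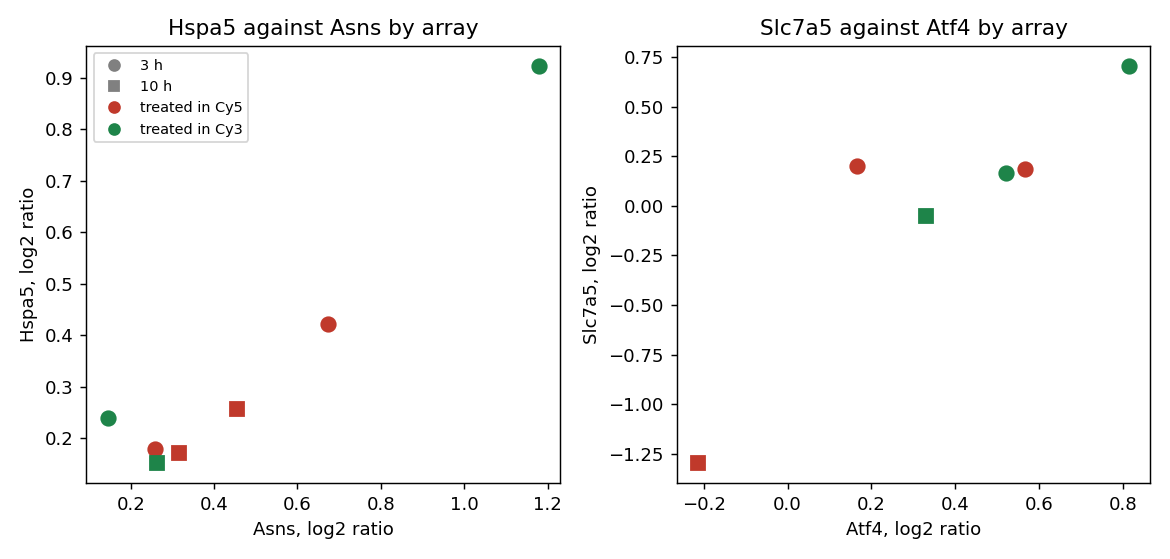
Log2 ratio of Hspa5 (y axis) against Asns (x axis) on 7 arrays, left, and of Slc7a5 (y axis) against Atf4, mean of its probes (x axis), on the 6 arrays with both values, right, with circles for 3 h, squares for 10 h, red for the treated sample in Cy5 and green for Cy3. Replicate 4 of 3 h is at the top right of the left plot (1.179 and 0.923), and 10 h replicate 2 at the bottom left of the right plot (-0.21 and -1.297).

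The direction of the ratios bears on all of this. Read as Cy5 over Cy3, the 3 h means were -0.15 for Atf4, -0.10 for Asns, -0.12 for Slc7a5, -0.14 for Hspa5 and 0.06 for Calr, each smaller than its spread between arrays of 0.43 to 0.79. In that reading a deposited value above 0 on every array, before the sign is turned, means a higher Cy5 signal on every array, whichever sample that dye labelled. The means and fitted values given here are after the turn, so above 0 means more of the transcript in treated cells. The fitted 10 h values were then -0.36 for Atf4, 0.01 for Asns, -0.62 for Slc7a5, -0.02 for Hspa5 and 0.01 for Calr, with an adjusted p of 1.0 in limma for each. The 10 h mean of Slc7a5 was below 0 in both readings, but in this one its replicate 3 was above 0, at 0.049, and the mean rests on replicate 2.

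The rest of the pathway was followed in lists of genes. Their values are read as treated over non-treated unless stated, and coarse values were not left out. Upstream, 5 genes of the eIF2 alpha kinases, the phosphatase and their cofactors were in the fit, with a median log2 ratio of -0.33 at 3 h and 0.03 at 10 h. Over all 6573 genes in the fit it was -0.13 and -0.02, with 39.3% above 0 at 3 h and 46.2% at 10 h, and 3.88% of all probes had an unadjusted p under 0.05 at 10 h. The ER stress kinase Eif2ak3, the amino acid sensor Eif2ak4 and Eif2s1 were not analysed here. Ppp1r15a, which directs the phosphatase to eIF2 alpha, had 0.27 ± 0.61 at 3 h and 0.16 ± 0.58 at 10 h on probe 2191, and -0.94 ± 1.65 and -0.03 ± 0.29 on probe 13556 (n = 4 and 3), so its probes differed in sign. For this list, 0 probes passed at 10 h in limma and 0 had an unadjusted p under 0.05.

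Among the stress transcription factors and their targets, 8 genes were in the fit, with medians of 0.04 at 3 h and 0.17 at 10 h and 5 of 8 (62.5%) above 0 at each time, against 39.3% and 46.2% of all genes. Ddit3 (CHOP), a factor induced downstream of ATF4, had -0.02, 0.47, -1.27 and 0.30 at 3 h and 0.56, 0.34 and 0.44 at 10 h. It was above 0 on all 10 h arrays, at 0.45 ± 0.11 (n = 3), and of mixed sign at 3 h. Read as Cy5 over Cy3, its 10 h mean was 0.15, with replicate 3 below 0. Trib3, a pseudokinase induced by ATF4 and CHOP, had 0.71 and 0.94 on the 2 arrays that measured it at 3 h and -2.04, -0.36 and -0.95 at 10 h. Both of its 3 h values lay at small whole-number ratios, and it had too few values for the fit. Atf3 had 0.08 ± 0.47 (n = 3) and -0.16 ± 0.29 (n = 3). In this list 0 of 9 probes passed at 10 h in limma and 1 had an unadjusted p under 0.05, against 3.88% of all probes.

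Of the amino acid synthesis enzymes, 7 were in the fit, with medians of 0.00 and -0.12 and 3 of 7 (42.9%) above 0 at each time, against 39.3% and 46.2%. Psat1 and Phgdh, which make serine, had -0.01 ± 0.47 and -0.13 ± 1.53 at 3 h (n = 4) and 0.10 ± 0.27 and -0.98 ± 3.21 at 10 h (n = 3). The scatter of Phgdh, with 2.17 and -4.25 on 10 h arrays, left it without a usable ratio. Shmt2 had too few values for the fit, with 1.33 ± 0.16 at 3 h (n = 2) and 0.59 ± 0.81 at 10 h (n = 3) on probe 11910. Its probe 7275 had 0.19 ± 1.05 (n = 2) and -1.97 (n = 1), and probe 19805 had -0.31 ± 1.17 (n = 2) and -0.13 ± 0.41 (n = 3). Both 3 h values of probe 11910, and all values of probes 7275 and 19805, lay at small whole-number ratios. Of the amino acid transporters 9 were in the fit, with medians of -0.09 and -0.17, and 3 of 9 (33.3%) above 0 at each time. Slc3a2, the heavy chain that carries Slc7a5 to the cell surface, had 0.44, 0.16, 0.24 and 0.64 at 3 h and -1.69, 0.18 and 0.02 at 10 h. Like Slc7a5 it was above 0 on all 3 h arrays and had a single low array at 10 h, but that was replicate 1, where Slc7a5 was not measured. Read as Cy5 over Cy3, the 3 h mean of Slc3a2 was -0.07. Slc7a1, for cationic amino acids, had -0.81 ± 0.36 (n = 2) and 0.76 ± 0.62 (n = 3), with both 3 h values at small whole-number ratios. Slc38a2, for small neutral amino acids, had -0.09 ± 0.58 (n = 4) and -0.09 ± 0.15 (n = 3) on probe 2840. In the enzyme list 0 of 8 probes passed at 10 h in limma and 1 had an unadjusted p under 0.05, against 3.88% of all probes, and in the transporter list both counts were 0. The 11 aminoacyl-tRNA synthetases in the fit had medians of 0.05 and 0.10, with 6 of 11 (54.5%) above 0 at 3 h and 8 of 11 (72.7%) at 10 h, against 39.3% and 46.2% of all genes. Of their 12 probes, 0 passed in limma and 1 had an unadjusted p under 0.05, against 3.88%.

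Of the other ER chaperones and folding enzymes 18 were in the fit, with a median of 0.02 at 3 h and -0.02 at 10 h. At 3 h 9 of 18, or 50.0%, were above 0, against 39.3% of all genes, and at 10 h 7 of 18, or 38.9%, against 46.2%. The disulfide isomerase Pdia4 had 0.62, 0.57, -0.50 and 0.86 at 3 h on probe 482. P4hb, another isomerase, had 0.99, 0.52, -0.84 and 0.88 on probe 19500. Both were above 0 on 3 h replicates 1, 2 and 4 and below 0 on replicate 3, where Hspa5 and Calr were above 0. At 10 h they had -0.01 ± 0.07 and -0.10 ± 0.10 (n = 3). Canx, the membrane-bound relative of Calr, had 0.36, 0.77, -0.88 and 0.37 at 3 h on probe 8739 and -0.15 ± 0.12 at 10 h. Its probe 3887 had 0.64 ± 1.13 (n = 3) at 3 h and -3.74 ± 2.97 (n = 2) at 10 h. Its probe 5563 had -0.49 ± 1.22 (n = 4) and -1.065 ± 2.27 (n = 3). Hsp90b1 was measured on 1 array at 3 h, at 0.04, and had 0.01 ± 1.30 at 10 h (n = 3).

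The list of ER stress sensors and ER-associated degradation had 13 genes in the fit, with medians of 0.00 and 0.04, and 7 of 13 (53.8%) above 0 at 3 h and 8 of 13 (61.5%) at 10 h, against 39.3% and 46.2%. Herpud1, a membrane protein of the degradation machinery, had 0.93, 0.69, -0.36 and 0.89 at 3 h, and 0.20 ± 0.53 at 10 h (n = 3). Pdia4, P4hb and Canx probe 8739 had the same order of signs at 3 h. So did Ppp1r15a probe 2191, Phgdh and Slc38a2 probe 2840, which are not in the ER lists. Replicate 3 of 3 h had the lowest median of the arrays, at -0.103, and the widest scatter. Xbp1, the factor whose mRNA is spliced by IRE1, had 0.17 ± 0.55 (n = 4) and 0.13 ± 0.21 (n = 3). In the list of ER chaperones and in that of sensors, 0 probes passed at 10 h in limma, and 1 of 21 and 1 of 14 had an unadjusted p under 0.05, against 3.88% of all probes. The 15 cytosolic and mitochondrial chaperones in the fit had medians of -0.04 and -0.01, with 7 of 15 (46.7%) above 0 at each time, against 39.3% and 46.2%.

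The probes whose values over the 7 arrays were most like the mean of the 5 genes were those of Acta2, the smooth muscle actin (Pearson r = 0.99), Chst11 (0.96), Get3 (0.95), Mlf2 (0.95) and Il7r (0.94), among 4728 ranked. Acta2 had 0.46 ± 0.19 at 3 h (n = 4) and -0.05 ± 0.16 at 10 h (n = 3), and Il7r had 0.81 ± 0.19 and -0.05 ± 0.04. With 7 points that share array, dye and scaling, and that fall into a 3 h and a 10 h group, the likeness is a description. The mean of the 5 genes holds the 3 h values on which they were chosen, and on 10 h replicate 1 it lacks Slc7a5. All values of this comparison were read as treated over non-treated.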

How the data were processed

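The deposited table holds the authors' log2 ratios, 1 column per array. Per the labels' protocols, column-purified total RNA was copied into cDNA and coupled to Cy3 or Cy5. How the scans were made, corrected and scaled is not given in the sources used here. Base 2 follows from the values themselves, and treated over non-treated is the likely direction but is not stated. Each array repeated 1 extreme value, above 15 in size, on 163 to 1614 spots, which was set as missing. As deposited, it was 16.054 to 17.06 on the arrays with the treated sample in Cy5 and -16.713 to -15.978 on those with it in Cy3. Its sign thus followed the dye of the treated sample on every array, and its bearing on the direction was not tested. Probes were named through the platform annotation. With limma 3.58.1 (R 4.3.3, lmFit and moderated variances) the 11559 probes having 3 or more values at 3 h and 2 or more at 10 h were fitted with a dye term. Tests were two-sided and Benjamini-Hochberg adjusted, threshold 0.05. The fit was tried on simulated data with changes larger than those fitted for the 5 genes. That trial does not bear on changes of their size. A ratio against 0 leaves out the control's own spread. A gene is the mean over its probes. No columns were left unmapped, and 0 pairs of arrays held mostly identical values. Small whole-number ratios used a tolerance of 0.0016. Besides the 5 members, pathway genes were named from a fixed set where measured. For Ppp1r15a, Slc38a2, Pdia4 and P4hb only the probes in the fit are given. Members, lists and rules were chosen with earlier results of these data known. Alternatives changed direction, dye term, arrays, centring, scale, filter, extreme and coarse values, probes, and a replicate block.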

Additional observations from a re-analysis of the deposited data

Results flagged for a closer look

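Slc7a5 at 3 h had 1 array far from the others: replicate 3, at a log2 ratio of 0.705, lay beyond the other 3 arrays by 0.928 of the whole range, which is past Dixon's critical value for 4 samples. Of 7 sets of 4 values examined this was the 1 so marked, and chance marks about 1 in 20. The value lies at a small whole-number ratio, and without this array the 3 h mean was 0.184 in place of 0.314.

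Slc7a5 also differed in sign between the times, with all 4 arrays at 3 h above 0 and both measured arrays at 10 h below 0, and means that differed by -0.987. On 3 h replicate 2 the value was only the constant of the array. Read as Cy5 over Cy3 the signs were mixed at both times, and the means differed by -0.504. This difference was not tested.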

How the results depend on the processing

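In limma 0 probes passed at 10 h under any of the 16 alternatives, and leaving out each array in turn gave 0 to 0. Read as Cy5 over Cy3, the fitted 10 h values of Atf4, Hspa5 and Calr turned to -0.358, -0.02 and 0.006. Atf4 was also below 0 without the dye term (-0.03) and without 10 h replicate 3 (-0.046). In the same reading the 10 h minus 3 h difference moved to -0.227 for Atf4, 0.112 for Asns, -0.504 for Slc7a5, 0.121 for Hspa5 and -0.054 for Calr, so those of Asns and Hspa5 turned sign, and the 3 h means to -0.15 for Atf4, -0.098 for Asns, -0.12 for Slc7a5, -0.141 for Hspa5 and 0.06 for Calr. The cause was not tested. With an array left out, the 10 h value ran from -0.046 to 0.07 for Atf4, 0.288 to 0.484 for Asns, -1.177 to -0.169 for Slc7a5, 0.161 to 0.355 for Hspa5 and -0.1 to -0.004 for Calr, with the lone arrays assumed to vary like the rest. The arm less the chaperones ran from -0.126 to 0.045 at 3 h and from -0.284 to 0.053 at 10 h. With the replicate block the 10 h minus 3 h difference was -0.546 for Atf4, -0.015 for Asns, -1.119 for Slc7a5, -0.086 for Hspa5 and -0.483 for Calr, and 943 probes had an unadjusted p under 0.05 against 938 without it, with 0 passing in either. Deviations of same-numbered arrays correlated at 0.028, 0.031 and 0.091, so the numbers were not taken to pair the arrays. Settings of the fit do not enter the 3 h means or the arms. Slc7a5 lacks a value on 10 h replicate 1, so it drops out where values on all 7 arrays were required. Without coarse values it had too few for the fit. Its share in the arm was left out after seeing the data.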
